A study of Mus musculus with 250 samples.

Results

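The 31 genes described here mark T cells or carry the signal of the T cell antigen receptor. They were taken as a fixed list of symbols and read from the array through probe sets annotated with that single symbol. Of the 31 listed genes 29 were measured, out of 18194 genes in all. Lck, the kinase that starts receptor signalling, and Tcf7, a T cell transcription factor, had no such probe set in the table used. Their expression was not analysed here. The 29 genes comprise 4 receptor chains (Cd3d, Cd3e, Cd3g, Cd247), 3 coreceptor chains (Cd4, Cd8a, Cd8b1), 5 other surface proteins of T cells (Cd2, Cd5, Cd6, Cd96, Thy1), 5 costimulatory, activation or cytokine receptor genes (Cd27, Cd28, Cd40lg, Cd69, Il7r), 9 kinases, adaptors and regulators of signalling (Zap70, Lat, Txk, Prkcq, Skap1, Trat1, Ubash3a, Themis, Ptprcap) and 3 nuclear regulators (Lef1, Bcl11b, Satb1).

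RNA of whole tissue was profiled on 250 GeneChip arrays from female FVB mice, with tumor-bearing mice and control mice contributing 25 arrays each to every one of 5 tissues, namely breast, liver, spleen, blood cells without plasma, and thymus. The tumor-bearing animals carried both the MMTV-rtTA and the TetO-NeuNT transgene (bitransgenic), so that doxycycline induces the activated Neu receptor, the rat form of Her2, in cells where the mouse mammary tumor virus promoter is active. Control mice were littermates with the TetO-NeuNT transgene alone and drank doxycycline too (2 mg/mL with 5% sucrose, from week 8 of age). Both groups thus share the agent and the TetO-NeuNT transgene, and they differ in carrying MMTV-rtTA. Tissue was collected once a tumor measured 1 cm, and each tumor-bearing mouse was matched to a control of the same age and cage. The breast samples of tumor-bearing mice are tumor tissue, whereas those of control mice are normal breast.

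T cells recognise peptides with an antigen receptor whose signal passes through the CD3 chains and the zeta chain into a cascade of kinases and adaptors. Coreceptors hold the receptor to its ligand and bring in the first kinase, while CD28 and related receptors add a costimulatory signal. T cells are made in the thymus, which consists largely of thymocytes that express these genes, and they recirculate through blood, spleen and lymph nodes. The mammary fat pad of the mouse holds lymph nodes, and liver has few T cells relative to hepatocytes.

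The sequences upstream of the receptor chain genes are shown because these chains carry the signal of the T cell antigen receptor, and all 4 fell in breast and, in 23 pairs, in spleen. Each window spans the annotated start in RefSeq (GRCm38.p6), is written 5′ to 3′ as the promoter table gives it, and has AGGAAG or its reverse complement CTTCCT in capitals, the core of sites bound by ETS factors, as well as any TGTGGT or ACCACA, the core of RUNX sites. Cd3d lies at chr9:44981536-44981835 on the plus strand, Cd3g at chr9:44980382-44980681 on the minus strand, Cd3e at chr9:45009562-45009861 on the minus strand, and Cd247, which encodes the zeta chain, at chr1:165788431-165788730 on the plus strand.
Cd3d: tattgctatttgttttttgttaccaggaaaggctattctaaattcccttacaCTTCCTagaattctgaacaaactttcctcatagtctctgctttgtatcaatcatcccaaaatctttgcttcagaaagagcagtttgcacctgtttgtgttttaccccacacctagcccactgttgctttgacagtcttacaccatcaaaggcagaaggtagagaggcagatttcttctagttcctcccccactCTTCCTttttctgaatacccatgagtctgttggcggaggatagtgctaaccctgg
Cd3g: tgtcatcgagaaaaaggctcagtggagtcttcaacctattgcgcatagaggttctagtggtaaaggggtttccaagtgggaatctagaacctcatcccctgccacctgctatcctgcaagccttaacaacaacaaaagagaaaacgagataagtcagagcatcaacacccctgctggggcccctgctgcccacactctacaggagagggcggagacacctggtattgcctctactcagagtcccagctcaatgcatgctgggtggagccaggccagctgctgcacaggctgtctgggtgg
Cd3e: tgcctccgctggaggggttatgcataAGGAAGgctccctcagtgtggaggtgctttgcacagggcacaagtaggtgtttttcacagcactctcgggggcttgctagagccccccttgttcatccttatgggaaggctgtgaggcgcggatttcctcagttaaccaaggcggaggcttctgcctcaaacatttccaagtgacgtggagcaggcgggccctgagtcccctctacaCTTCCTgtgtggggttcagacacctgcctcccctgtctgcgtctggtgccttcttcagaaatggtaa
Cd247: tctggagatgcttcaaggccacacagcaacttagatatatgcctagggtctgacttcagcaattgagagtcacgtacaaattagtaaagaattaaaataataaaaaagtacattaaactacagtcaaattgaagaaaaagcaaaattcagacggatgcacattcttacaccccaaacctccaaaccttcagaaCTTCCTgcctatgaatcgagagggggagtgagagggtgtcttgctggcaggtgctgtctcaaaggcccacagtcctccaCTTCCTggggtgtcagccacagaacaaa
The windows of Cd3d, Cd3e and Cd247 each held 2 ETS matches, and that of Cd3g held 0. Neither the Cd3 windows nor that of Cd247 held a RUNX match. In all, 34 windows were found for 21 of the 31 listed genes, among them Lck and Tcf7, whose expression was not analysed. Of these windows 47.1% held the ETS letters on either strand, against 35.4% of all 32851 windows in the table. For the RUNX letters the shares were 20.6% and 16.8%, for CAGGTG, an E protein core, 38.2% and 20.2%, for CTTTGA, a TCF and LEF core, 23.5% and 16%, and for AGATAA, read by GATA factors, 11.8% and 11.2%. TATAAA was in 14.7% of the listed genes' windows and 13.6% of all windows. A match describes letters in a window and is not a measured site, several genes have more than 1 window, and no test was made.

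Several arrays stood apart from their tissue before any comparison. The array labelled spleen tumor-bearing 21 was high in genes of immature thymocytes, with Rag1, part of the recombinase of developing lymphocytes, at 12.63 on the log2 intensity scale against a spleen median of 4.20 and a thymus median of 13.45. The arrays labelled spleen control 13 and spleen control 21 were low in the 13 measured B cell genes (list means 6.20 and 6.26, spleen median 11.44) and had the fat cell gene Adipoq at 10.50 and 10.98, against a spleen median of 5.01. In thymus, controls 11 and 20 were low in 11 thymocyte genes (list means 7.12 and 7.34, thymus median 11.58). Thymus control 20 had the erythroid gene Klf1 at 13.31 (thymus median 5.50, spleen median 12.65) and the B cell gene Cd79a at 12.25 (8.03 and 12.09). Its Adipoq was at 5.98, against a thymus median of 12.83. Thymus control 11 had Adipoq at 14.03, Cd3d at 7.01 (thymus median 13.49) and Cd79a at 5.08. Adipoq in spleen tumor-bearing 21 was at 13.18. What tissue these arrays hold was not tested. In breast control 1 the fat cell list was at 9.74 (control breast median 11.88) and in blood control 7 the erythroid list at 6.63 (blood median 8.98). Other arrays correlated poorly with their group without meeting the marker rule given below. The lowest were liver control 2 (median Spearman correlation 0.324 with the other arrays of its group), blood control 9 (0.666), thymus control 2 (0.72) and liver control 7 (0.78). These are among the 26 outlying arrays left out where stated. The lowest hepatocyte list mean, 12.48 in a control liver (liver median 14.45), fell just short of the marker rule, and no liver array was left out by it. The rule behind the 7 arrays that go against markers was set after seeing the data. It takes arrays with the mean of a defining marker list more than 2 log2 units below the tissue median. In spleen, blood and thymus the counts of members that passed are given with and without such arrays. Counts of the spleen lists of other cells and of the thymus neutrophil list are given with all pairs as well. In breast, the signal of Erbb2, the mouse counterpart of the transgene, was higher in the tumor-bearing mouse in 23 of 25 pairs, and lower in pairs 1 and 2 (-0.69 and -0.61). No pair of arrays held identical values. Array medians differed between tissues (25.2 in blood to 129 in thymus), so levels are compared within a tissue only.

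Averaged over the 29 genes, log2 intensity in tumor-bearing mice ran from 5.09 to 8.07 in breast with a median of 5.46, against 5.47 to 8.45 with a median of 6.97 in controls. In spleen the tumor-bearing arrays had a median of 8.82 and the control arrays 9.52. In blood the medians were 6.97 in tumor-bearing mice and 7.36 in controls. The medians lay close together in liver, at 5.13 on tumor-bearing and 5.15 on control arrays, and in thymus, at 11.60 on tumor-bearing and 11.67 on control arrays. In whole tissue a lower signal of T cell genes can come from fewer T cells, from less RNA per T cell or from more RNA of other cells. These cannot be told apart here.

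**Figure D1:**
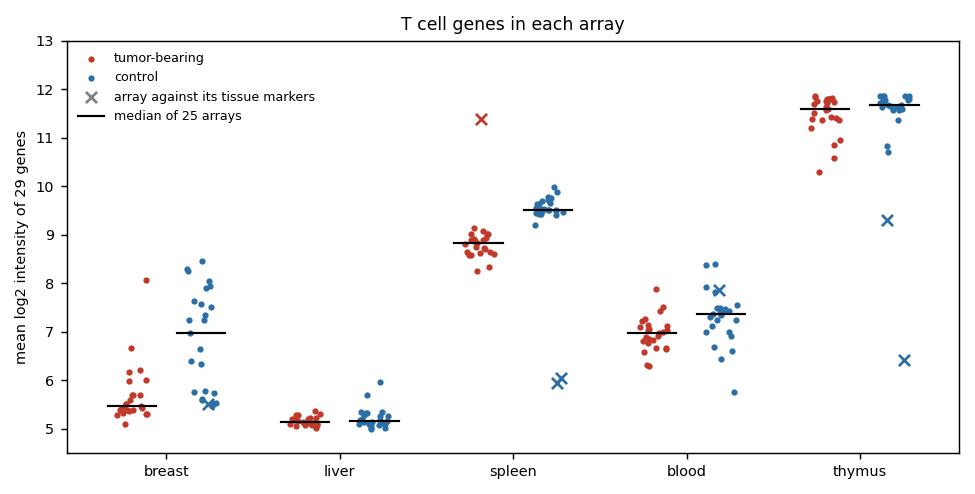
Mean log2 intensity of the 29 T cell genes in each array (points), by tissue, with tumor-bearing arrays left of control arrays and the median of 25 arrays as a black line. Crosses mark arrays that go against the markers of their tissue, such as spleen tumor-bearing 21 at 11.38.

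In breast tumors most T cell genes were lower than in control breast over all pairs. Most genes fell in the later-numbered pairs, whereas few passed the test in the earlier-numbered ones. Over all 25 pairs 26 of the 29 genes fell and 0 rose (0 at an unadjusted p under 0.05) at an adjusted p under 0.05 (limma with the pair as a block, p adjusted by Benjamini-Hochberg across the 18194 genes), where 32.3% of all genes fell and 30% rose. The median change of the 29 genes was -1.11 on the log2 scale, against -0.03 for all genes. Without the outlying arrays, which removes pairs 1, 2 and 4, 27 fell (35.8% of all genes did) and the median change was -1.32.

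The sample numbers in the labels fall into an earlier run of 10 breast pairs and a later run of 15, each with both conditions. What the runs stand for is not given in the sources used here. In the later-numbered pairs 27 of 29 genes fell (28.2% of all genes did), with a median change of -1.88. In the earlier-numbered pairs 1 fell (Prkcq, background 20.5%) and 1 rose (Cd40lg, by 0.20, background 18.2%), with a median change of 0.03. The change itself differed between the runs for 27 of 29 genes in limma (adjusted p between 0.00296 and 0.032), where 3.91% of all genes differed, and every one of these 27 was lower in the later run. Tumor-bearing arrays had similar means of the 29 genes in both runs, with a median of 5.41 in the later run and 5.60 in the earlier run. Control arrays had a median of 7.51 in the later run and 5.60 in the earlier run, and the medians of the controls lay further apart than those of the tumors. Without pairs 1, 2 and 4 the change still differed between runs for 21 of 29 genes (2% of all genes). In the 8 earlier pairs left 3 genes (Cd3g, Cd28 and Prkcq) fell (24.9% of all genes did), and the median change was -0.32.

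Among the receptor chains Cd3g changed most. In the later run Cd3g was at 4.25, 4.71 and 6.47 (lowest, median and highest log2 intensity of 15) in tumors, against 5.89, 8.94 and 10.27 in control breast. All 15 pairs were lower in the tumor, although the highest tumors overlapped the lowest control, and the fall was 12.5-fold (-3.64 ± 0.30 SE, limma adjusted p = 1.58e-08). In the earlier run Cd3g was at 4.43, 5.26 and 9.67 in tumors, against 4.88, 5.65 and 9.41 in control breast, and the groups overlapped throughout (-0.25 ± 0.51, limma adjusted p = 0.738). Cd3d fell 8.80-fold in the later run (-3.14 ± 0.31), Cd247 4.70-fold (-2.23 ± 0.25) and Cd3e 3.35-fold (-1.75 ± 0.19).

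The coreceptors fell as well in the later run, Cd8b1 5.86-fold (-2.55 ± 0.30), Cd4 2.72-fold (-1.44 ± 0.17) and Cd8a 2.57-fold (-1.36 ± 0.17). CD4 marks helper T cells and CD8 cytotoxic T cells. Of the other surface genes, Cd5, a brake on receptor signalling, fell by 3.09 and Cd2, an adhesion receptor, by 2.88 on the log2 scale, and Cd6 (-1.88) and Cd96 (-1.53) fell too. Thy1 was the exception (0.12 ± 0.20, limma adjusted p = 0.626). It stood at 8.52, 9.90 and 10.96 in tumors of the later run, against 8.22, 9.64 and 10.55 in controls, and the groups overlapped over nearly their whole range. Thy1 is also made by fibroblasts and other stromal cells.

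Cd28, the main costimulatory receptor, was at 3.68, 4.27 and 6.04 in tumors of the later run, against 5.25, 7.90 and 8.82 in controls. It was lower in the tumor in all 15 pairs, although the ranges overlapped at their ends, and fell 8.44-fold (-3.08 ± 0.25, limma adjusted p = 1.35e-08). The tumor medians of Cd28, Cd5, Trat1 and Ubash3a in this run lay under the 20th percentile of all intensities (19.5), so the size of these falls is limited by the low end of the scale. Cd27, another costimulatory receptor, fell by 2.63, Il7r, the receptor for the survival cytokine interleukin 7, by 2.31 and Cd69, an early activation marker, by 1.81 on the log2 scale. Cd40lg, the ligand by which helper T cells activate B cells, did not pass the test in the later run (-0.05 ± 0.09, limma adjusted p = 0.645). Its probe set was dim, with a median intensity of 35.6 over the 25 control breasts, against a median of breast array medians of 63.4.

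Of the signalling genes all 9 fell in the later run. Prkcq, the protein kinase C isoform of the T cell synapse, was at 5.46, 6.37 and 7.08 in tumors, against 8.24, 9.13 and 9.75 in controls, and these groups did not overlap. It fell 6.32-fold (-2.66 ± 0.16, limma adjusted p = 3.15e-10). Prkcq was also the member that fell in the earlier run (-1.13 ± 0.34, limma adjusted p = 0.024, lower in 8 of 10 pairs). There the median change of the members was 0.03 with all 10 pairs. In the 8 earlier pairs without outlying arrays it was -0.32, and Cd3g and Cd28 fell too. How far Prkcq went apart from the other members thus depends on the arrays kept. Whether cells other than T cells contribute to the Prkcq signal was not tested. The adaptor genes Lat (-2.20), Skap1 (-2.09) and Trat1 (-1.08) fell, as did the kinase Txk (-1.55), the thymocyte selection gene Themis (-1.38) and Ptprcap (-1.89), which encodes a partner of CD45. The smallest falls were those of Zap70, the kinase bound to the receptor (-0.89), and Ubash3a, a phosphatase that damps it (-0.63). Among the nuclear regulators Bcl11b, which keeps T cell identity, fell by 2.00, the chromatin organiser Satb1 by 1.28 and Lef1 by 1.14.

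Genes of other lymphoid cells moved alongside in breast. Of 13 measured B cell genes 12 fell in the later run (median -2.75) and 1 in the earlier run, where 1 rose (median 0.14). Of all genes 28.2% fell and 28% rose in the later run, and 20.5% fell and 18.2% rose in the earlier run. The B cell list mean was 4.99 to 6.85 in tumors of the later run and 5.52 to 9.33 in controls. Across the 25 pairs the within-pair difference of the T cell gene mean followed that of the B cell list mean, with a Pearson correlation of 0.984 over pairs that share tissue, array and processing. Of 6 measured genes of lymph node stroma and venules 6 fell in the later run (median -1.35). In the earlier run 0 passed the test with all 10 pairs (median -0.25), and 2 fell without outlying arrays (median -0.35, 24.9% of all genes fell). The list mean of these stromal genes ran from 4.96 to 7.23 in tumors and 6.22 to 8.43 in controls of the later run. Of 7 fat cell genes 7 fell and of 8 epithelial genes 7 rose in the later run. The log2 ratio of the 3 prime to the 5 prime Gapdh probe set, a sign of RNA integrity, averaged 0.03 in tumor-bearing breast and 0.79 in control breast, and with it as a covariate 23 members fell (24.9% of all genes). What these cells, the amount of lymph node in a sample or RNA integrity contribute to the fall was not tested.

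**Figure D2:**
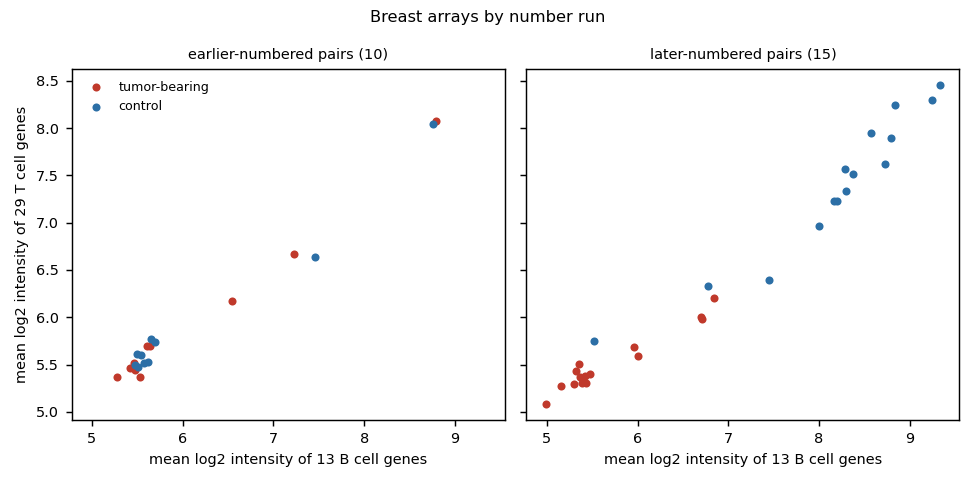
Mean log2 intensity of the 29 T cell genes (vertical axis) against that of 13 B cell genes (horizontal axis) in breast arrays, with the earlier-numbered pairs on the left and the later-numbered pairs on the right. In the later run the tumor-bearing arrays lie at T cell means up to 6.20, while the control arrays reach 8.45.

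In spleen T cell genes fell together once the arrays that go against their tissue were left out. Over all 25 pairs only Cd3e, Lef1 and Bcl11b fell in limma and Ubash3a rose, where 18.3% of all genes fell and 22.4% rose. Pairs 13 and 21 set this result, with a member mean 2.85 and 5.44 higher in the array labelled tumor-bearing, while the other 23 pairs lay between -1.38 and -0.34. Without these 2 pairs 27 of 29 genes fell (26.6% of all genes) and 1 rose (29.5%), with a median change of -0.86 against 0.02 for all genes. Both runs gave this count, 27 in the 10 earlier-numbered pairs (21.3% of all genes) and 27 in the 13 later-numbered pairs left (22.8%). In the 15 later-numbered pairs with pairs 13 and 21 kept, 0 fell (0 at an unadjusted p under 0.05, limma), where 10% of all genes did. Without the pair as a block 7 members fell over all 25 pairs (16% of all genes), in place of 3. The values below are from the 23 pairs, with fold changes and adjusted p from limma.

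The receptor chains fell in all 23 pairs. Cd3g was at 8.45, 9.66 and 10.14 (lowest, median and highest) in tumor-bearing mice, against 10.27, 10.63 and 11.33 in controls, and the groups did not overlap. It fell 2.13-fold (-1.09 ± 0.09, limma adjusted p = 1.88e-10). Cd247 was at 7.44, 8.09 and 8.52 in tumor-bearing spleens, against 8.63, 8.91 and 9.63 in controls, also without overlap (-0.95 ± 0.07). Cd3d (-0.74 ± 0.05) and Cd3e (-0.70 ± 0.05) fell by less on the log2 scale.

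Both the coreceptor of cytotoxic T cells and that of helper T cells fell in spleen. Cd8b1 was at 7.30, 8.17 and 8.97 in tumor-bearing spleens, against 8.87, 9.35 and 10.16 in controls, with a small overlap (-1.24 ± 0.09, a 2.36-fold fall). Cd8a fell by 0.97 and Cd4 by 0.80 on the log2 scale. Cd2 had the largest fall of the 29 genes (-1.27 ± 0.09, 2.41-fold), and Cd5 (-0.98), Cd6 (-0.88), Thy1 (-0.62) and Cd96 (-0.59) fell in all 23 pairs.

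Of the costimulatory and activation genes, Cd28 was at 7.94, 8.92 and 9.30 in tumor-bearing spleens, against 9.68, 9.94 and 10.57 in controls. These groups did not overlap, and the fall was 2.22-fold (-1.15 ± 0.08, limma adjusted p = 3.32e-12). Cd27 fell by 0.99, Cd69 by 0.83 and Il7r by 0.79. Cd40lg again did not pass the test (-0.02 ± 0.04, limma adjusted p = 0.669), with levels of 5.90 to 6.45 in tumor-bearing spleens and 5.89 to 6.60 in controls. Over 25 control arrays each, its median intensity was 69.4 in spleen (median of array medians 106) and 77.9 in thymus (129). The single Cd40lg probe set was thus weak even in thymus, so its lack of change says little about T cells.

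Of the 9 signalling genes 8 fell, by 0.97 (Themis), 0.94 (Ptprcap and Txk), 0.86 (Trat1), 0.85 (Skap1), 0.78 (Zap70), 0.48 (Lat) and 0.31 (Prkcq) on the log2 scale. Ubash3a went the other way on its brighter probe set. It was at 8.65, 8.96 and 9.38 in tumor-bearing spleens, against 8.27, 8.72 and 9.07 in controls, with overlapping groups and a higher value in the tumor-bearing mouse in 22 of 23 pairs (0.27 ± 0.04, limma adjusted p = 5.42e-06). Its second probe set fell by the same amount (-0.27 ± 0.05, limma adjusted p = 6.84e-05 over all probe sets), so the direction of Ubash3a in spleen depends on the probe set. Over the 56 probe sets of the members 50 fell, 1 rose and the others did not pass. Among the nuclear regulators Lef1 fell by 1.03, Bcl11b by 0.93 and Satb1 by 0.85, each in all 23 pairs.

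**Figure D3:**
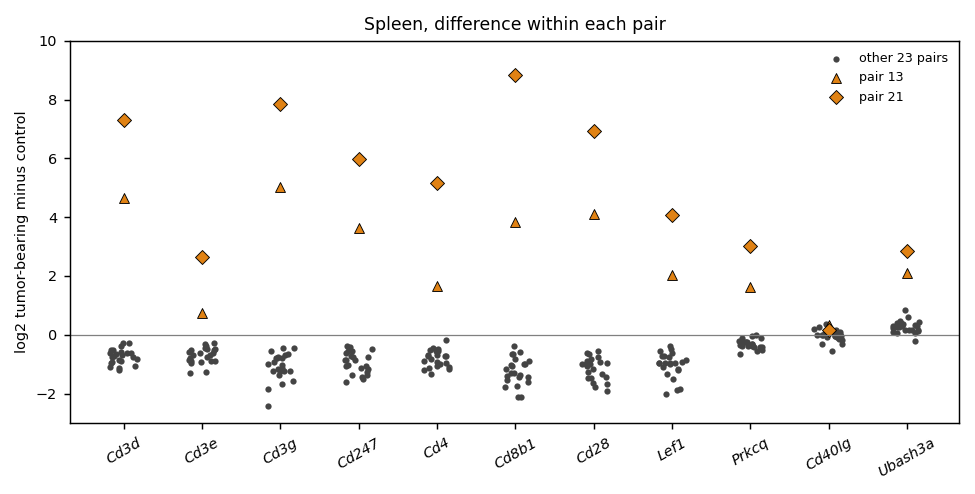
Log2 difference of tumor-bearing minus control spleen within each matched pair for 11 T cell genes. Pairs 13 (triangles) and 21 (diamonds), which hold the arrays that go against spleen markers, lie above 0 for the genes shown, and the other 23 pairs (dots) lie below 0 for the receptor chains.

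Genes of other cells moved with this fall in spleen, where 29.5% of all genes rose and 26.6% fell in the 23 pairs. In the same 23 pairs 12 of 12 measured neutrophil genes rose (median 2.57), with list means of 12.01 to 13.59 in tumor-bearing spleens and 9.0 to 11.44 in controls. Of 11 erythroid genes 11 rose (median 1.11, list means 11.96 to 12.49 in tumor-bearing spleens and 9.72 to 12.46 in controls). Of 13 B cell genes 13 fell (median -0.79, list means 10.35 to 11.65 and 11.44 to 12.19). Spleen arrays were left out by the mean of this same B cell list, so its count here depends on that choice. Of 10 NK and cytotoxic genes 9 fell and 1 rose (median -0.61). With all pairs kept, 5 of the 13 B cell genes fell and 0 rose (median -0.52), where 18.3% of all genes fell and 22.4% rose. There 12 neutrophil and 10 erythroid genes rose, and of the NK and cytotoxic genes 5 fell and 1 rose. What the higher neutrophil and erythroid signal contributes to the lower T cell signal was not tested.

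In blood the mean of the 29 genes was lower in the tumor-bearing mouse in 19 of 25 pairs, and how many passed depended on the arrays kept. Over all 25 pairs 9 of 29 genes fell and 0 rose in limma (0 at an unadjusted p under 0.05), where 4.27% of all genes fell and 8.66% rose. The 9 were Cd3e, Cd247, Cd8a, Cd27, Cd28, Cd69, Zap70, Themis and Lef1. Without the 5 outlying arrays (22 pairs) 23 fell (13.2% of all genes), whereas leaving out the array that goes against blood markers (control 7, 24 pairs) gave 7 (4.8%). Within the runs 0 fell in the 10 earlier-numbered pairs (0.0769% of all genes fell) and 5 in the 15 later-numbered pairs (5.51%). At an unadjusted p under 0.05 (limma) 8 were lower in the earlier-numbered pairs, and the share of all genes at that threshold was not computed. No member's change differed between the runs (0 at an unadjusted p under 0.05).

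Cd69 moved most in blood. It was at 3.98, 5.51 and 7.50 in tumor-bearing mice, against 5.59, 6.87 and 8.40 in controls. The groups overlapped, but 22 of 25 pairs were lower in the tumor-bearing mouse and the fall was 2.22-fold (-1.15 ± 0.19, limma adjusted p = 9.1e-05). Cd28 was at 6.09, 7.42 and 8.80 in tumor-bearing mice, against 5.45, 8.28 and 9.83 in controls, with overlap and a 1.76-fold fall (-0.82 ± 0.19, 22 of 25 pairs lower). Cd27 fell by 0.63, Lef1 by 0.56, Cd247 by 0.46, Cd3e by 0.37, Themis by 0.31, Cd8a by 0.24 and Zap70 by 0.17 on the log2 scale. The fall of Zap70 rests on its probe set, since the probe set that is brightest in blood gave 0.01. Cd3d (-0.11 ± 0.17) and Prkcq (-0.01 ± 0.16) had changes smaller than their error. In the 22 pairs the median change of the 29 genes was -0.44, against -0.31 over all pairs.

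Neutrophil genes rose in blood too, 9 of 12 over all 25 pairs (median 3.05, list means 8.10 to 10.88 in tumor-bearing mice and 5.51 to 7.62 in controls). Of all genes 8.66% rose and 4.27% fell over these pairs. Of 13 B cell genes 12 fell (median -0.98) and of 10 NK and cytotoxic genes 9 fell (median -0.70). Their part in the lower T cell signal was not tested.

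In thymus no member passed the test. Over all 25 pairs 0 of 29 genes were called in either direction (0 at an unadjusted p under 0.05, limma), where 0.011% of all genes rose and 0% fell. The median change was 0.12. Without controls 11 and 20 (23 pairs) the median change was -0.18 and 0 members passed, where 0.0989% of all genes rose and 0% fell. At an unadjusted p under 0.05 (limma) 8 members were lower. The share of all genes at that threshold was not computed, so this count has no background to be read against. Cd3e, for example, was at 10.65, 11.68 and 12.12 in tumor-bearing mice, against 11.48, 11.73 and 12.59 in controls, and the groups overlapped (-0.18 ± 0.08, limma adjusted p = 0.589). Cd8b1 (-0.18 ± 0.13), Cd4 (-0.15 ± 0.10) and Bcl11b (-0.12 ± 0.09) had similar small values. A p above the threshold does not show that thymus levels were the same. Of 12 neutrophil genes 5 rose in these 23 pairs (median 1.27), with the smallest p for S100a8 (1.92 ± 0.24), a calprotectin subunit. Over all 25 pairs 2 of the 12 rose.

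In liver 1 member rose and 0 fell, where 7.89% of all genes rose and 2.28% fell. At an unadjusted p under 0.05 (limma) 5 were lower, and the share of all genes at that threshold was not computed. Zap70 was at 8.69, 9.34 and 9.68 in livers of tumor-bearing mice, against 6.11, 8.97 and 9.47 in controls, with overlapping groups and 22 of 25 pairs higher (0.50 ± 0.14, limma adjusted p = 0.0205). The receptor chains that pair with this kinase did not pass, with Cd3e at 7.12 to 8.09 in tumor-bearing mice and 6.95 to 8.20 in controls. Of the other 2 probe sets of Zap70, 1 rose and 1 did not pass. Without the 5 outlying arrays (20 pairs) Zap70 (0.39 ± 0.06), Cd69 (0.24 ± 0.07) and Ubash3a (0.09 ± 0.03) rose (18.6% of all genes), and Thy1 (-0.20 ± 0.08) and Cd96 (-0.16 ± 0.05) fell (18.9%). Cd69 and Ubash3a were dim in liver. Over 25 arrays each, median intensities of Cd69 were 15 (tumor-bearing) and 13.6 (control), and those of Ubash3a 15.1 and 14.2. These lie under the 20th percentile of all intensities (19.5), as do Trat1 (13.4 and 11.8) and Cd8b1 (19.3 and 18.9). The low end of the scale limits changes of such genes, so a rise or a lack of change there says little about T cells. All 12 measured neutrophil genes rose in liver (median 2.89).

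**Figure D4:**
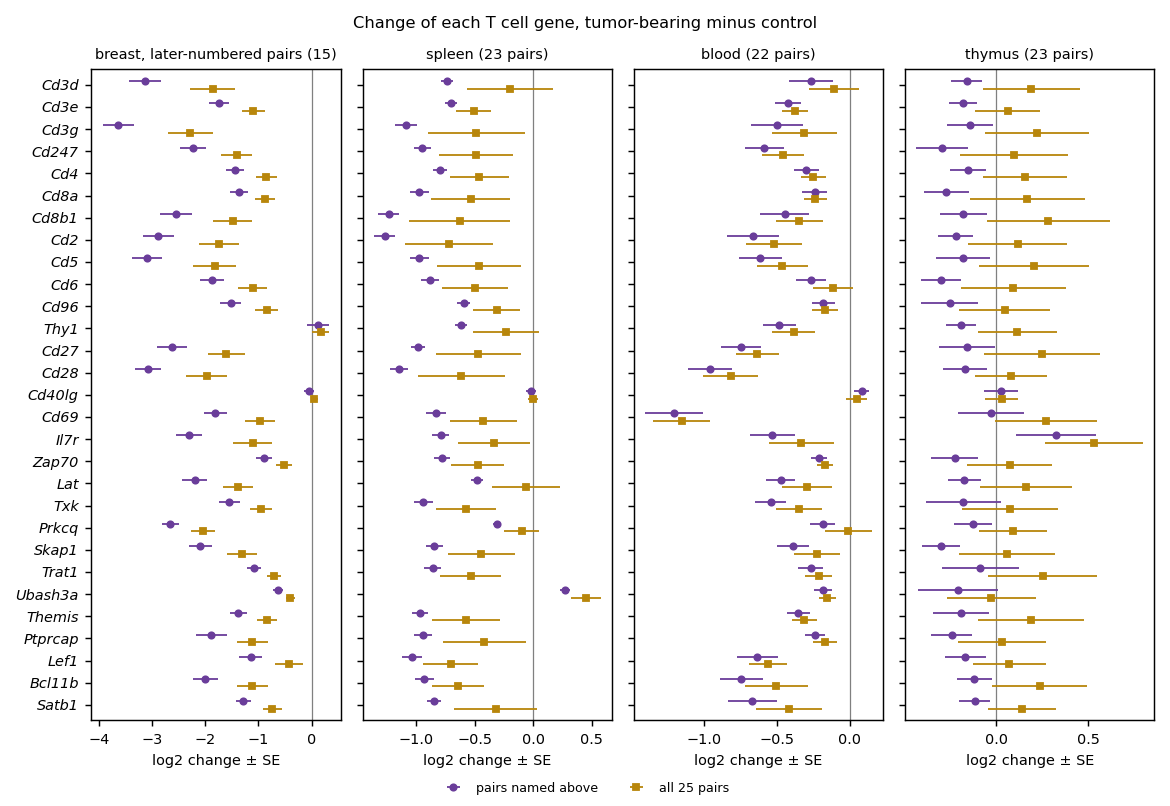
Log2 change of each T cell gene, tumor-bearing minus control (points, mean over pairs; bars, SE), in 4 tissues, for the pairs named above each panel (circles) and for all 25 pairs (squares). Horizontal scales differ between panels. In spleen 27 genes lie below 0 with small errors once pairs 13 and 21 are left out. In thymus 0 genes passed the test, and the median change was 0.12 over all 25 pairs and -0.18 over the 23 pairs.

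Whether the changes differ between tissues was tested on within-pair differences of liver, spleen, blood and thymus, with tissues of linked mice as a random block in limma. With all pairs, the change differed among the 4 tissues for Cd3e, Cd69, Zap70, Lef1 and Bcl11b, 5 of 29 members where 30.5% of all genes differed. In single contrasts with all pairs, thymus minus spleen passed for Cd3e, Lef1 and Bcl11b (16.9% of all genes), spleen minus blood for Ubash3a (16.2%) and thymus minus blood for Cd69 (8.35%). Without the arrays that go against tissue markers it differed for 26 of 29 (35.2% of all genes). There the spleen change was lower than the blood change for 18 members (19.1% of all genes differed in either direction), as for Cd8b1 (-0.89 ± 0.17) and Ptprcap (-0.77 ± 0.14). The thymus change was above the spleen change for 24 members and below it for Ubash3a (19.1% of all genes differed), as for Cd8b1 (1.05 ± 0.17) and Cd28 (0.97 ± 0.19). Thymus and blood differed for Cd69 (1.10 ± 0.23) and Cd28 (0.59 ± 0.19), 2 members where 10.1% of all genes differed. Without the outlying arrays they differed for 13 members, where 23% of all genes did.

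Other genes of receptor signalling were followed as a list that leaves out the 29 members. In spleen (23 pairs) 21 of 24 measured genes fell and 0 rose (26.6% and 29.5% of all genes), with a median of -0.36. Sh2d1a, an adaptor, (-1.12 ± 0.07), Dgka, a diacylglycerol kinase, (-0.95 ± 0.06) and Rasgrp1, an activator of Ras, (-1.0 ± 0.07) had the smallest p. In breast over all pairs 14 fell and 3 rose (32.3% and 30% of all genes), among them Fyn, a kinase, (-0.73 ± 0.10) and Dgkz, a diacylglycerol kinase, (0.99 ± 0.10). The balance differed by run, with 18 lower and 3 higher in the later run (median -0.70, 28.2% and 28% of all genes). In the earlier run 3 were lower and 6 higher (median 0.08, 20.5% and 18.2% of all genes). In blood 2 fell and 6 rose (4.27% and 8.66% of all genes). The smallest p were those of Tespa1, a thymocyte signalling gene, (-0.37 ± 0.06) and Pag1, an adaptor that holds the inhibitory kinase Csk, (1.28 ± 0.20). Without the outlying arrays (22 pairs) 10 fell and 5 rose in blood (13.2% and 10% of all genes), so the balance there depends on the arrays kept. In liver 3 rose (Ptprc, which encodes CD45, 0.93 ± 0.16, Lcp2, 0.45 ± 0.10, and Fyb, 0.44 ± 0.10, which both encode adaptors) and 1 fell over all pairs, whereas 10 rose and 4 fell without the outlying arrays (20 pairs). In thymus 0 passed. Many of these genes are expressed in other blood cells too.

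Of 15 genes induced by receptor signalling, 6 rose and 3 fell in breast over all pairs, where 30% of all genes rose and 32.3% fell. No test of the list against these shares was made. The smallest p were those of the early growth response genes Egr3 (1.79 ± 0.19), Egr1 (1.37 ± 0.16) and Egr2 (1.09 ± 0.18). These genes are also induced by growth factor receptors in epithelial cells. The counts differed by run, with 5 higher and 7 lower in the later run (28% and 28.2% of all genes). In the earlier run 3 were higher and 0 lower (18.2% and 20.5%). Without the outlying arrays 6 were higher and 6 lower (31.8% and 35.8%). In spleen (23 pairs) 6 fell and 1 rose (26.6% and 29.5% of all genes), with the smallest p for Egr3 (-1.13 ± 0.09), Icos, a costimulatory receptor, (-0.62 ± 0.07) and Egr2 (-0.48 ± 0.06). Of 6 homing genes of naive T cells 5 fell in spleen, with the smallest p for the integrin gene Itgb7 (-0.94 ± 0.05), the chemokine receptor gene Ccr7 (-1.14 ± 0.08) and Klf2 (-0.61 ± 0.05), a transcription factor of resting T cells. In blood 4 of these 6 fell, as for Ccr7 (-0.79 ± 0.21).

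The members varied together from mouse to mouse. The median Pearson correlation between pairs of the 29 genes, over arrays of the same tissue and condition that match their tissue markers, was 0.83 in tumor-bearing breast (24 arrays) and 0.89 in control breast (24), 0.65 in tumor-bearing spleen and 0.55 in control spleen (23 each). It was 0.64 in tumor-bearing blood and 0.72 in control blood (24 each), 0.75 in tumor-bearing thymus and 0.46 in control thymus (23 each), and 0.14 in tumor-bearing liver and 0.25 in control liver (25 each). The genes of such a pair share arrays, the T cell content of the sample and the normalization.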

How the data were processed

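Per the labels' protocols, RNA was extracted with Trizol and hybridised to single-colour oligonucleotide arrays, 1 per tissue sample. The authors deposited 1 linear intensity per probe set and array (5.17 to 47198 over all arrays), and how these intensities were background-corrected, summarised and normalized is not given in the sources used here. The number of arrays limits the precision, and nothing says how many mice of a cage were independent.

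Intensities were floored at their 5th percentile (11.3) and log2-transformed, without further normalization. Of 45101 probe sets 34958 had 1 gene symbol, 932 several and 9211 none. Where a gene had several single-symbol probe sets, the one brightest on average in the 250 arrays was used, so a gene's level cannot be set against another gene's. Tumor-bearing minus control was tested per tissue in limma 3.58.1 (R 4.3.3), with each matched pair as a block term, moderated errors and Benjamini-Hochberg adjustment over 18194 genes, at 0.05. The numbers pair the mice because the labels match each to a control of the same age and cage, and the median correlation of same-pair deviations was 0.0818 in breast and 0.312 in liver, while spleen had 0.151, blood 0.216 and thymus 0.249. Differences between tissues were tested on within-pair differences with the linked mouse pair as a random block (correlation 0.0428), and differences between the 2 runs of sample numbers on within-pair differences. Both the links between tissues and the runs were read from sample numbers in the labels. The fit was tested on simulated data.

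Alternatives were other floors and filters, quantile normalization, other probe set choices, no replicate block, the Gapdh ratio as a covariate, each run alone, and leaving out arrays that correlate poorly with their tissue (26 arrays) or that go against its markers (7 arrays). The last of these, its combinations with the runs, and the 6 promoter motifs were chosen after seeing the data. The members, the gene lists and the markers were chosen with earlier results of these data known. All members are accounted for in the text or in its counts; of other lists, the 3 genes with the smallest p that passed are named, or fewer. Lck, Tcf7 and 14 genes of the other lists had no probe set of their own symbol in the table used, and their expression was not analysed here.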

Additional observations from a re-analysis of the deposited data

Results flagged for a closer look

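In breast the change of 27 of the 29 genes differed between the later-numbered and the earlier-numbered pairs (limma, adjusted p between 0.00296 and 0.032, 3.91% of all genes), a difference in effect between groups of samples under the same contrast. The later minus the earlier change on the log2 scale was -3.18 for Cd3d, -1.62 for Cd3e, -3.39 for Cd3g and -2.05 for Cd247 among the receptor chains, and -1.48 for Cd4, -1.21 for Cd8a and -2.67 for Cd8b1 among the coreceptors. Surface genes differed by -2.85 (Cd2), -3.17 (Cd5), -1.93 (Cd6) and -1.70 (Cd96), and costimulatory and activation genes by -2.56 (Cd27), -2.76 (Cd28), -2.09 (Cd69) and -3.0 (Il7r). Signalling genes differed by -0.95 (Zap70), -2.05 (Lat), -1.50 (Txk), -1.53 (Prkcq), -1.97 (Skap1), -0.94 (Trat1), -0.58 (Ubash3a), -1.34 (Themis) and -1.92 (Ptprcap), and nuclear regulators by -1.79 (Lef1), -2.21 (Bcl11b) and -1.37 (Satb1). Thy1 and Cd40lg did not pass. The B cell list moved with this difference, and its part was not tested. In liver, spleen, blood and thymus 0 members differed between the runs (0 at an unadjusted p under 0.05, limma).

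Between tissues, with all pairs kept, the change differed among liver, spleen, blood and thymus for 5 of 29 members (30.5% of all genes). The thymus change minus the spleen change was 0.57 ± 0.18 for Cd3e, 0.78 for Lef1 and 0.88 for Bcl11b, the thymus change minus the blood change was 1.42 ± 0.33 for Cd69, and the spleen change minus the blood change was 0.60 ± 0.21 for Ubash3a. Zap70 differed among the 4 tissues but in none of these 3 contrasts. These values include spleen pairs 13 and 21 and thymus pairs 11 and 20.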

How the results depend on the processing

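In the earlier-numbered breast pairs alone, 1 member rose and 1 fell, and genes that fell over all pairs had changes above 0 that did not pass: Cd3d 0.0444, Cd4 0.0362, Cd8b1 0.12, Cd5 0.0786, Cd6 0.0505, Cd96 0.17, Cd69 0.28, Il7r 0.69, Zap70 0.0593, Ptprcap 0.0333, Bcl11b 0.21 and Satb1 0.0835. Without outlying arrays 3 fell there, and Cd96 (0.0622) and Il7r (0.32) stayed above 0. Leaving out genes under the median level kept 7 members in breast, of which 5 fell (32.9% of genes), since fewer genes were tested. In spleen 27 fell without outlying arrays, 27 without arrays against their markers, 27 in earlier pairs alone, 27 in later pairs without those arrays, 12 with the Gapdh covariate (18% of all genes) and 0 in later pairs alone, while 0 rose in later pairs alone (16.1% of all genes) and 0 with the covariate (20.9%). In blood 23 fell without outlying arrays, 15 after quantile normalization (6.41% of all genes), 5 in later and 0 in earlier pairs alone. The probe set of Zap70 brightest in blood gave 0.0117. In liver 3 rose and 2 fell without outlying arrays (Ubash3a 0.0898), 0 rose in earlier pairs alone (0.467% of all genes), 2 rose with the covariate (10.7% of all genes) and 2 fell in later pairs alone (11.7%). Without the pair as a replicate block 26 fell in breast (30.7% of all genes), 7 in spleen (16%) and 6 in blood (3.34%), and 1 rose in liver (7.33%). Without outlying arrays the change differed among tissues for 28 members (56.9% of all genes), with 19 (35.8%) for spleen minus blood, 28 (32.1%) for thymus minus spleen and 13 (23%) for thymus minus blood. Without arrays against their markers these were 26 (35.2%), 18 (19.1%), 25 (19.1%) and 2 (10.1%), and quantile normalization gave 4 (8.39%) for thymus minus blood. Without a block for linked mice 4 (29.1%), 1 (15.5%), 3 (16%) and 1 (7.83%) differed. Apart from the removal of samples or genes, the cause was not tested. Shares not given here stand beside the same counts above. A floor at the 20th percentile moved Cd28 in breast over all pairs to -1.88, against -1.97.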
